A study of Mus musculus with 6 samples.

Results

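RNA levels in 2 mouse libraries labelled as a knock-out of Phc1 were compared with those in 2 libraries of neural progenitor cells (NPC). These 4 libraries, of 6 in the series, were taken by their titles, and 17489 of 37620 listed genes had enough reads to be tested. All cells carry the strain entry J1, a mouse embryonic stem cell line. The NPC libraries are labelled wild type and came from J1 embryonic stem cells (ESC) that were differentiated and then maintained in culture. The Phc1-KO libraries carry the genotype Phc1-/-, are also entered as derived from J1 ESC, and have NPC as their cell type entry, whereas the title and design text of the series call them embryonic stem cells. The other 2 libraries are wild-type J1 ESC and serve here to place the Phc1-KO libraries. Per the labels, stem cell medium held serum and LIF, the feeder fibroblasts were mitotically inactive, and feeders were removed before use. The sources used here do not give the deleted part of Phc1, the number of knock-out clones or whether replicates were separate cultures. Hence p values measure the spread between libraries, which is pooled over all 6 in the series.

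Embryonic stem cells hold the pluripotency network of Pou5f1, Sox2 and Nanog, grow as epithelial colonies joined by E-cadherin, and express the miR-290 cluster of microRNAs. Neural progenitors have closed that network and express glial and neurogenic transcription factors, radial glia proteins and neurotransmitter receptors. The Phc1 protein belongs to the canonical form of Polycomb repressive complex 1 (PRC1), where its Polyhomeotic family links complexes together. PRC1 holds developmental genes such as the Hox clusters silent. It acts beside PRC2, which methylates histone H3 at lysine residues of repressed genes.

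Levels are given as read counts over library size (CPM) after TMM scaling, library 1 before library 2, and each group has n = 2. Differences are log2 fold changes of Phc1-KO against NPC with their standard error (SE), from the edgeR quasi-likelihood test on all 6 libraries, and a gene passed at a Benjamini-Hochberg adjusted p under 0.05. Counts of genes higher or lower are of genes past this test. Between 15226214 and 21893821 reads per library fell in genes. Beyond counting noise the 2 libraries of a group varied by 27.5% in NPC, 18.1% in Phc1-KO and 1.98% in ESC. The ESC pair was thus much closer than separate samples of the other groups, so calls were also made with the ESC libraries summed into 1. Reads outside genes came to 1.08 per gene read in Phc1-KO 1 against 0.66 in Phc1-KO 2, and their part in the results was not tested.

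MicroRNAs of stem cells and of differentiated cells are shown first because their seeds, bases 2 to 8 in capitals, set which messages they can pair with. RefSeq (GRCm38.p6) gives these mature sequences, 5′ to 3′, for the miR-290 cluster, which is read in stem cells, and for let-7c, a member of the let-7 family of differentiated cells:
mmu-miR-290a-3p: aAAGUGCCgccuaguuuuaagccc
mmu-miR-291a-3p: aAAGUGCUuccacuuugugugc
mmu-miR-291b-3p: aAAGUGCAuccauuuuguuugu
mmu-miR-294-3p: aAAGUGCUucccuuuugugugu
mmu-miR-295-3p: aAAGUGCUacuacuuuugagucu
mmu-miR-293-3p: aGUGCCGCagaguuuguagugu
mmu-let-7c-5p: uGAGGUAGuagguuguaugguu
The first 5 share the seed letters AAGUGC. Of these miR-291a-3p, miR-294-3p and miR-295-3p have the same seed, and miR-290a-3p and miR-291b-3p each differ in its last base, whereas miR-293-3p has another seed.

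The hairpin loci of that cluster, at mm9 chromosome 7, 3218627 to 3220842, together held 1090 and 1310 counts in Phc1-KO, 1 and 1 in NPC and 1078 and 1073 in ESC. All 7 tested loci were higher in Phc1-KO than in NPC (32.3% of all tested genes were), and none differed from ESC past the test. Mir293 and Mir292 had no count in NPC and were at least 100.1-fold and 91.3-fold higher, with NPC set to 3 counts over its 2 libraries, the most that 0 allows. The 4 tested loci of the X-linked miR-106a cluster had 0 counts in both NPC libraries and 112 and 181 in Phc1-KO, and all 4 were higher. In ESC the 4 loci together held 37 and 32 counts, and Mir92-2 was higher in Phc1-KO than in ESC (log2 fold change 2.27, adjusted p = 0.0269 with edgeR). Of 3 tested let-7 loci, Mirlet7c-1 was lower, with 20 and 24 counts in NPC and 0 in both Phc1-KO libraries. Mirlet7a-1 and Mirlet7d did not pass (log2 fold changes 0.04 and 0.37), and the summed counts of the 3 overlapped, at 64 and 56 in NPC and 39 and 82 in Phc1-KO. These are reads of total RNA over hairpins, so precursor and mature forms cannot be told apart, and floors and intervals cover counting error only.

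The cell type entry was read beside 4 markers. Utf1, a chromatin-associated stem cell protein (mm9 chromosome 7, 147129688 to 147131011), stood at 54.5 and 46.1 CPM in Phc1-KO and at 0 in both NPC libraries, and was at least 512-fold higher. Dppa5a, an RNA-binding protein of pluripotent cells (chromosome 9, 78214859 to 78215984), stood at 313 and 376 CPM in Phc1-KO and 0.197 and 0.2597 CPM in NPC. The neural markers were reversed. Fabp7, the fatty acid-binding protein of radial glia (chromosome 10, 57504687 to 57508256), stood at 0.471 and 0.726 CPM in Phc1-KO and 1355 and 459 CPM in NPC. Grm5, a metabotropic glutamate receptor (chromosome 7, 94750952 to 95283417), stood at 0.0524 and 0.242 CPM in Phc1-KO and 272 and 180.0 CPM in NPC. In all 4 genes the groups were far apart, and the Phc1-KO values lay by those of ESC, which were 35.2 and 34.1 CPM for Utf1, 315 and 327 CPM for Dppa5a, 1.54 and 1.28 CPM for Fabp7 and 0.0617 and 0.365 CPM for Grm5. Utf1 and Dppa5a rank 1 and 10 among the largest increases from NPC. Fabp7 and Grm5 rank 6 and 7 among the largest decreases. Genes of such rank lie far from NPC whatever the entry, so that distance does not check it. In level, the libraries labelled Phc1-KO carry these stem cell markers and lack these neural ones, unlike their cell type entry. Over all tested genes, 78.5% were nearer to ESC than to NPC in Phc1-KO. Genotype and cell type cannot be told apart in this comparison.

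**Figure D1:**
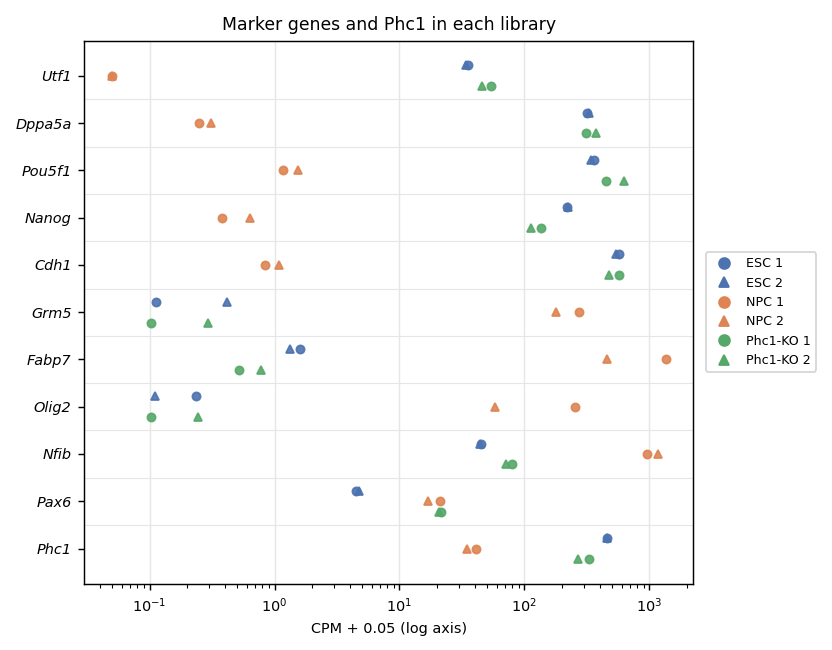
CPM of marker genes and Phc1 in each of the 6 libraries, on a log axis after adding 0.05 CPM, with circles for library 1 and triangles for library 2 of a group. The Phc1-KO points sit nearer to ESC than to NPC for all genes shown but Pax6, where they sit by NPC, at 21.5 and 20.8 CPM against 20.98 and 16.9. Nanog, Nfib and Phc1 lie between ESC and NPC.

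The targeted gene Phc1 (ENSMUSG00000040669, minus strand of mm9 chromosome 6, 122267749 to 122290579) had a level of 326 and 267 CPM in the libraries labelled Phc1-KO, 40.8 and 34.6 CPM in NPC and 459.7 and 460.5 CPM in ESC. The knock-out libraries thus held more Phc1 RNA than NPC, with a log2 difference of 2.98 (SE 0.16) and an adjusted p of 2.06e-05, and less than ESC, at -0.63 (adjusted p = 0.0412). Counts per gene hold no exon positions, so this level neither checks nor contradicts the genotype.

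Across the genome, 11359 of the 17489 tested genes, 64.9%, differed between Phc1-KO and NPC. In Phc1-KO 5641 were higher (32.3%) and 5718 lower (32.7%), and these shares are the background for the gene lists that follow. The median size of a called change was 1.56 on the log2 scale, 4219 called genes changed at least 4-fold and 1005 at least 32-fold. Both Phc1-KO libraries lay above both NPC libraries for 7150 genes (40.9%) and below them for 7088 (40.5%). In level, 13735 of the tested genes (78.5%) were nearer to ESC than to NPC in Phc1-KO. In the same fit 1864 genes (10.7%) differed between Phc1-KO and ESC, 858 higher (4.91%) and 1006 lower (5.75%). These comparisons share the Phc1-KO libraries, so their values are given side by side and not as separate evidence. The very close ESC pair enters the spread that all groups share, so calls against ESC are less certain. They are given only for the fit that keeps the ESC libraries apart. With the ESC libraries summed as 1, 5306 genes were higher and 5088 lower than in NPC.

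**Figure D2:**
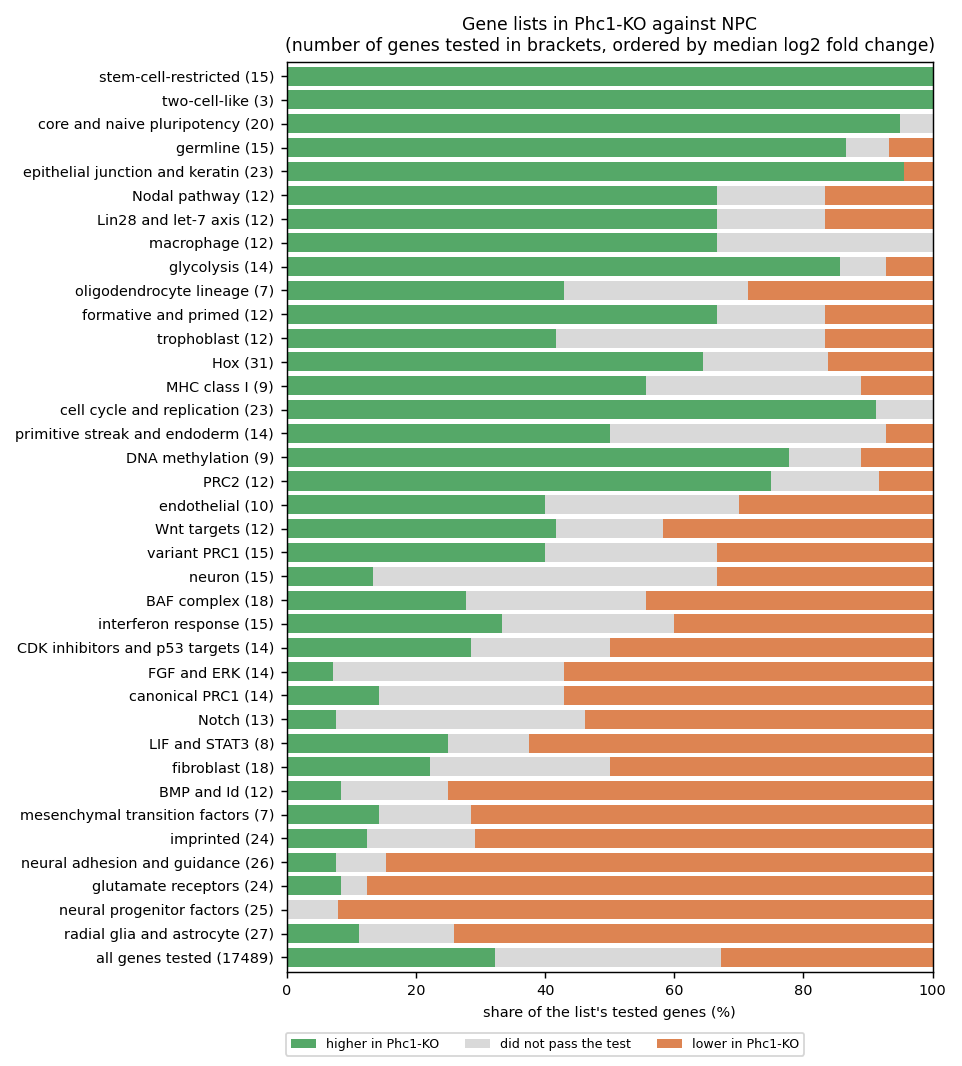
For each gene list, the share of its tested genes that were higher in Phc1-KO (green), lower in Phc1-KO (orange) or did not pass the test (grey), in order of the list's median log2 fold change, with all 17489 genes tested as the last bar. The core pluripotency and stem-cell-restricted lists are all or nearly all green, the neural progenitor list is nearly all orange, the neuron and oligodendrocyte lists are mixed, and the last bar shows 32.3% higher and 32.7% lower.

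Pluripotency genes were higher in the Phc1-KO libraries than in NPC. Of 20 core and naive pluripotency genes tested, 19 were higher than in NPC and none was lower, with a median log2 fold change of 7.39 (6.36 with genes unread in NPC at their lower bound), against -0.00406 over all genes tested. Pou5f1, the Oct4 factor, was at 453 and 627 CPM against 1.12 and 1.49 in NPC, a difference of 8.68 (SE 0.27). Nanog was at 136 and 112 CPM against 0.329 and 0.584, and Zfp42, the Rex1 marker of naive cells, at 433 and 561 CPM against 2.24 and 3.44. Fgf4, a growth factor made by stem cells, was at 207 and 243 CPM in Phc1-KO and at 1 count in each NPC library, a ratio of 3455 (95% counting interval 956 to 28534). Sox2, which neural progenitors also need, differed less, at 254 and 312 CPM against 103 and 75.5 and a log2 fold change of 1.66. The member that did not pass was Tbx3, a naive factor, at 52.6 and 32.3 CPM against 13.3 and 31.2 (adjusted p = 0.0735), and it passed with DESeq2 and without NPC 2 (adjusted p = 0.00449 in the latter). Against ESC, 3 of the 20 genes were higher and 4 lower, Nanog being among the lower ones (log2 fold change -0.83). Dppa3, a maternal and naive stem cell protein, stood at 3.82 and 7.69 CPM against 35.1 and 36.5 in ESC and 0 in NPC.

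All 15 tested genes restricted to stem cells were higher in Phc1-KO than in NPC, with a median log2 fold change of 8.62 (7.88 with unread genes at their bound). L1td1, an RNA-binding protein derived from a LINE element, was at 1202 and 1014 CPM against 1.18 and 1.62. Tdh, the threonine dehydrogenase of mouse stem cells, was unread in NPC and at 7.96 and 9.38 CPM in Phc1-KO, at least 88.8-fold higher. The summed level of the list was 3804 and 3972 CPM in Phc1-KO, 39.98 and 32.6 in NPC and 5445 and 5451 in ESC. The Lin28 and let-7 list moved less evenly, with 8 of 12 higher and 2 lower. Lin28a, which blocks let-7 maturation, was at 519 and 640.4 CPM against 0.526 and 0.779, and Trim71, a let-7 target, at 457 and 409 against 15.98 and 17.3. Myc was lower, at 30.95 and 21.8 CPM against 60.6 and 52.4, while Mycn was higher, at 135 and 176 against 5.66 and 9.35. The other lower gene was Dis3l2, a nuclease of let-7 precursors, which no longer passed without ESC 1, ESC 2 or Phc1-KO 1.

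Genes of the later, formative and primed states of pluripotency had 8 of 12 members higher and 2 lower. Dnmt3b, a de novo DNA methyltransferase, was at 540.1 and 688 CPM against 5.46 and 6.95, and Fgf5, a marker of the epiblast, at 13.4 and 16.8 against 0.4603 and 0.455. Foxd3 was unread in NPC and at 10.8 and 15.5 CPM in Phc1-KO, above the 3.64 and 3.65 CPM of ESC as well (log2 fold change 1.85, adjusted p = 0.018). Otx2, an anterior factor used by both epiblast and brain, was at 32.99 and 57.1 CPM against 15.8 and 14.7. Cdh2, the N-cadherin of neural cells, was lower, at 45.98 and 32.7 CPM against 144 and 147. The other lower gene, Etv4, no longer passed without ESC 1, ESC 2, NPC 1 or Phc1-KO 1, or under most other settings, which left 1.

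Genes of epithelial junctions and keratins had 22 of 23 members higher in Phc1-KO and 1 lower, with a median of 5.62. Cdh1, E-cadherin, was at 577 and 473 CPM against 0.789 and 1.04 in NPC, and Epcam, an epithelial adhesion molecule, at 170.2 and 186 against 0.789 and 0.325. Esrp1, an epithelial splicing regulator, was at 61.1 and 61.97 CPM against 0.395 and 0.195. Krt18, a keratin of simple epithelia, was at 26.97 and 36.3 CPM in Phc1-KO, 0.0658 and 0.1299 in NPC and 107 and 108 in ESC, and its partner Krt8 at 25.6 and 31.7 in Phc1-KO, 0.0658 and 0.195 in NPC and 84.99 and 87.4 in ESC, so both were above NPC and below ESC. Against ESC, 13 of the 23 genes were lower past the test and none was higher. The lower gene was Krt7, at 0.8903 and 0.435 CPM against 2.63 and 1.299, which no longer passed without NPC 1 or Phc1-KO 2. Of 7 tested factors of epithelial to mesenchymal transition, 5 were lower, among them Zeb2, a repressor of E-cadherin, at 44.3 and 26.7 CPM against 188 and 186. Cdh11, a mesenchymal cadherin, lost its call without NPC 2, Phc1-KO 1 or Phc1-KO 2 (adjusted p = 0.174, 0.153 and 0.217). Twist2 was the 1 higher gene, at 13.7 and 12.3 CPM against 4.73 and 9.09, and lost its call without either ESC library, either Phc1-KO library or NPC 1, and with total-count scaling.

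Polycomb genes differed in both directions. Of 14 canonical PRC1 genes, 2 were higher in Phc1-KO than in NPC and 8 lower, with a median of -0.82. The 2 higher genes were Phc1 and Cbx7, the chromodomain subunit of stem cells, at 156 and 142 CPM against 16.2 and 33.5. The paralogs of Phc1 were lower: Phc2 stood at 23.1 and 17.5 CPM against 137 and 91.6, and Phc3 at 60.4 and 52.6 against 149 and 177. The same held for the chromodomain genes Cbx8, at 4.35 and 5.56 CPM against 15.9 and 20.3, and Cbx6, at 51.7 and 35.7 against 103 and 126. Bmi1, the PCGF subunit of differentiated cells, was at 43.7 and 47.5 CPM, below the 84.6 and 85.1 of NPC (log2 fold change -0.90) and above the 9.75 and 9.31 of ESC (2.26, adjusted p = 0.00164). Of the catalytic RING subunits, Ring1 was lower, at 9.06 and 10.4 CPM against 16.6 and 15.9 in NPC, and Rnf2 did not pass, at 138 and 162 against 155 and 161. Scmh1, Scml2, Cbx2 and Pcgf2 had log2 fold changes of -0.99, -0.64, 0.05 and 0.23, and of these Scmh1 passed. Scmh1 lost its call without NPC 2 or Phc1-KO 2 and Ring1 without ESC 1 or with the ESC libraries summed, whereas Scml2 and Cbx2 passed without NPC 2, at -0.97 and 0.56.

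**Figure D3:**
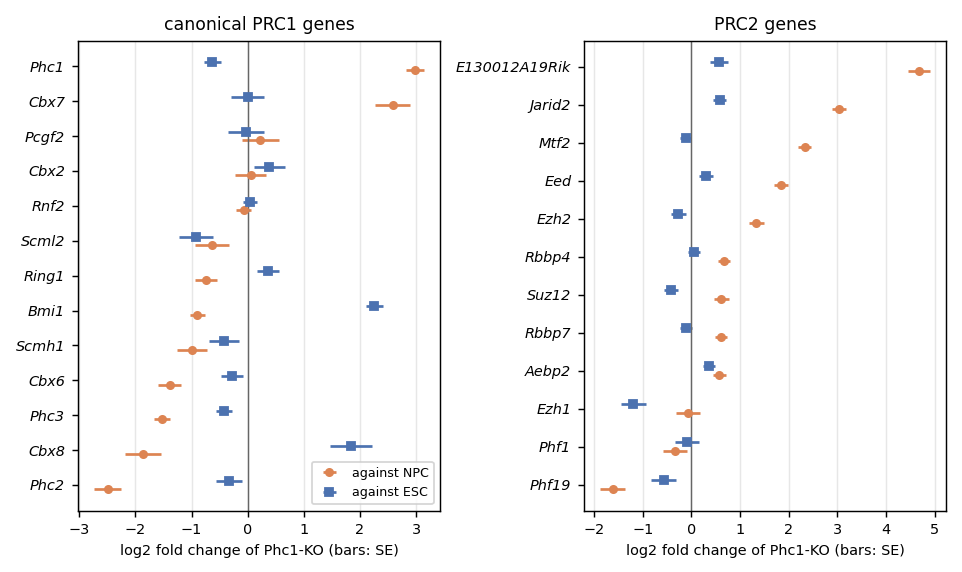
Log2 fold changes of Phc1-KO against NPC (orange circles) and against ESC (blue squares) for 13 of the 14 canonical PRC1 genes (left) and PRC2 genes (right), with bars for the SE of the fit. Against NPC, Phc1 and Cbx7 lie to the right and Phc2 and Cbx8 to the left. Against ESC, Bmi1 lies at 2.26 and Cbx8 at 1.84.

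Variant PRC1 genes, whose complexes lack Phc subunits, divided into 6 higher and 5 lower of 15. This is not far from the 32.3% and 32.7% of all tested genes. L3mbtl2, Pcgf6 and Mga, subunits of a germline-gene repressor complex, were higher, L3mbtl2 at 162 and 210.1 CPM against 35.3 and 30.5, Pcgf6 at 85.9 and 104 against 23.4 and 24.4 and Mga at 840.0 and 937 against 386 and 459. Auts2 was lower, at 27.7 and 18.5 CPM against 52.5 and 90.9, and so was Yaf2, at 14.1 and 17.6 against 48.1 and 48.9. PRC2 genes had 9 of 12 members higher and 1 lower. The methyltransferase gene Ezh2 was at 282 and 270.2 CPM against 125 and 93.4 and its partner Eed at 199 and 249 against 63.6 and 61.5. The largest differences were in accessory subunits, Jarid2 at 829.8 and 710.5 CPM against 89.8 and 97.7 and E130012A19Rik at 91.9 and 73.9 against 3.81 and 2.66. Phf19 was the lower gene, at 4.399 and 6.095 CPM against 17.95 and 14.4. Without NPC 1 there were 2.

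Enzymes of DNA methylation had 7 of 9 members higher and 1 lower. Dnmt3l, a cofactor of de novo methylation, was at 125 and 126 CPM in Phc1-KO and 0.0658 and 0.1299 in NPC, a ratio of 1283 (95% counting interval 439 to 6222). Tet1, which oxidises methylated cytosine, was at 1791 and 1334 CPM against 111 and 114, and Tet3, of the same family, was lower, at 35.9 and 19.2 against 131 and 148. Dnmt3a was above ESC, at 417 and 422 CPM against 147 and 145, and nearer to NPC, at 286 and 331. Its log2 difference from NPC of 0.45 did not pass without ESC 1, without ESC 2 or with both summed. Subunits of the BAF chromatin remodeller had 8 of 18 members lower and 5 higher. Thus 72.2% of them were called, against 64.9% of all tested genes. Smarca2, the ATPase Brm, was at 12.7 and 8.805 CPM against 95.2 and 117, and Smarcc2, a core subunit of differentiated cells, at 40.95 and 28.5 against 112 and 112. Smarca4, the other ATPase, was at 335 and 249.8 CPM against 295 and 237 and did not pass. Actl6a, the actin-like subunit of proliferating cells, was higher, at 138 and 212 CPM against 58.5 and 49.4. The higher BAF count was 3 with total-count scaling and without ESC 1, ESC 2 or Phc1-KO 1.

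Hox genes, the homeobox factors of body axis position and known Polycomb targets, were tested for 31 of 39 listed. In Phc1-KO 20 were higher than in NPC and 5 lower, with a median of 1.57, and 18 were higher and none lower than in ESC. Hoxa10 was at 11 and 7.45 CPM against 0 and 0.1299 in NPC and 0.308 and 0.243 in ESC, a ratio to NPC of 140.1 (95% counting interval 38.5 to 1161). Hoxa9 was at 3.98 and 3.39 CPM against 0 and 0.0649, and Hoxc8 at 4.87 and 2.47 against 0 and 0.0649. Hoxa11 was unread in NPC and at 2.57 and 2.13 CPM in Phc1-KO, at least 23.9-fold higher. The 5 lower genes were Hoxb2, Hoxd1, Hoxd3, Hoxd4 and Hoxd8. Hoxd8 stood at 5.24 and 5.27 CPM against 18.1 and 39.9 in NPC, and Hoxd1 at 0.471 and 0.435 against 1.12 and 4.09, of which Hoxd1 lost its call without either Phc1-KO library. Hoxb2 lost its call with DESeq2 and without NPC 2 or either Phc1-KO library, and Hoxd4 without Phc1-KO 1. Hoxd3 lost its call with DESeq2, limma-voom, the replicate block or upper-quartile scaling and without either Phc1-KO library, and stood at -0.61 without NPC 2 (adjusted p = 0.48). Hox levels stayed low, with a summed level of 115 and 84.6 CPM in Phc1-KO, 43.5 and 90 in NPC and 20.7 and 19.5 in ESC, and the sums did not separate Phc1-KO from NPC. The counts were 12 higher and 3 lower with a filter at 1 CPM, which tests fewer genes, 11 higher and 1 lower without Phc1-KO 1, and the lower count was 2 without Phc1-KO 2 and 3 without NPC 2. Hoxa9 and Hoxa11 share annotated exon sequence with a neighbour on the same and the opposite strand, and the sources used here do not give the strand setting of the counting.

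Genes of neural progenitors were low in the Phc1-KO libraries. Of 25 neural progenitor transcription factors and regulators tested, 23 were lower than in NPC and none was higher, with a median of -3.98. Olig2, a basic helix-loop-helix factor of neural progenitors and oligodendrocytes, was at 254 and 58.6 CPM in NPC and 0.0524 and 0.194 in Phc1-KO, and its paralog Olig1 at 281 and 143 in NPC and 0.157 and 0.2903 in Phc1-KO. The NPC libraries differed from each other more than 4-fold for Olig2, yet both lay far above Phc1-KO. Nfia, a nuclear factor I protein of glial fate, was at 489 and 388 CPM in NPC and 6.76 and 3.63 in Phc1-KO. Nfib, of the same family, was at 955 and 1174 CPM in NPC and 79.3 and 71.8 in Phc1-KO, where it was above the 45.03 and 44.04 of ESC. The 2 members that did not pass were Pax6 and Sox3, of which Sox3 was lower without NPC 2 (adjusted p = 0.00285). Pax6, a paired-box factor of the eye and forebrain, was at 21.5 and 20.8 CPM in Phc1-KO and 20.98 and 16.9 in NPC, and above ESC (4.44 and 4.68 CPM, log2 fold change 2.21, adjusted p = 0.00327). Its transcript overlaps Elp4 on the opposite strand.

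Radial glia and astrocyte genes had 20 of 27 members lower and 3 higher, with a median of -4.46. Sparcl1, a secreted astrocyte protein, was at 882 and 1436 CPM in NPC and 2.41 and 2.27 in Phc1-KO, and Mlc1, an astrocyte membrane protein, at 184 and 176 in NPC and 0.367 and 0.0968 in Phc1-KO. Ptprz1, a receptor phosphatase of radial glia, was at 1095 and 551 CPM in NPC and 3.72 and 2.32 in Phc1-KO. Nes and Vim, intermediate filaments of progenitors, differed less: Nes stood at 978 and 489 CPM in NPC and 148 and 122 in Phc1-KO, and Vim at 1701 and 1433 in NPC and 743 and 549 in Phc1-KO. Aqp4, the water channel of astrocyte end-feet, was at 15.8 CPM in NPC 1 and 458 in NPC 2, against 0.0524 and 0.0484 in Phc1-KO. Its call was lost with limma-voom and without Phc1-KO 1 or Phc1-KO 2 (in the last cases adjusted p = 0.0524 and 0.058). The 3 higher genes were Apoe, a lipid carrier, at 270.1 and 380.2 CPM against 91.9 and 88.6, Cd44, a hyaluronan receptor, at 263 and 179 against 90.1 and 65.1, and Gja1, the gap junction protein connexin 43, at 522 and 522 against 312 and 364. Without NPC 1 there were 5.

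Receptors for glutamate had 21 of 24 members lower and 2 higher. Gria2, an AMPA receptor subunit, was at 164 and 60.6 CPM in NPC and 0 and 0.145 in Phc1-KO, a ratio of 1486 (95% counting interval 508 to 7209). Grik2, a kainate receptor subunit, was at 42.4 and 37.7 CPM in NPC and 0.471 and 0.242 in Phc1-KO, and Neto1, an auxiliary subunit, at 37.2 and 23.9 in NPC and 0 and 0.0484 in Phc1-KO. The higher genes were Grm6, a metabotropic receptor of the retina, at 3.25 and 2.61 CPM against 0 in NPC, and Grik3, at 30.1 and 21.7 against 17.5 and 17.5. Grik3 lost its call with limma-voom, with total-count scaling and without any single ESC or NPC library, or Phc1-KO 1. Adhesion and axon guidance genes had 22 of 26 members lower and 2 higher. Epha5, an ephrin receptor, was at 92.9 and 58.5 CPM in NPC and 0.419 and 0.339 in Phc1-KO. Slitrk1, a synaptic adhesion protein, was unread in Phc1-KO and at 8.02 and 9.55 CPM in NPC, at least 116-fold lower. L1cam was higher in Phc1-KO, at 5.13 and 3.34 CPM against 0.658 and 1.17, as was Slit3, which lost its call without NPC 1 or Phc1-KO 1.

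Neuronal genes did not share a direction, with 2 of 15 higher, 5 lower and a median of -0.14. Dcx, a microtubule protein of young neurons, was at 34.5 and 28.5 CPM in NPC and 0.262 and 0.0968 in Phc1-KO, and Mtap2, a dendritic microtubule protein, at 1006 and 448 in NPC and 16.3 and 16.3 in Phc1-KO. Stmn2 and Tubb3, also used as neuronal markers, were higher in Phc1-KO, Stmn2 at 135 and 138 CPM against 0.921 and 1.36 and Tubb3 at 43.8 and 46.6 against 4.41 and 3.18, with ESC at 116 and 104 CPM for Stmn2 and 33.2 and 31.6 for Tubb3. Without NPC 1 the higher count was 6. Of 7 oligodendrocyte lineage genes 3 were higher and 2 lower, or 1 lower without Phc1-KO 2. With all libraries 71.4% of these 7 were called, against 64.9% of all tested genes. Pdgfra, a receptor of oligodendrocyte precursors and of mesenchyme, was at 136 and 92.7 CPM in Phc1-KO, below the 182 and 238 of NPC and above the 16.6 and 14.4 of ESC (log2 fold change 2.88, adjusted p = 0.00239). Its call against NPC was lost without Phc1-KO 2.

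Markers of other cells that the cultures could hold were read in the same way, and their part in the differences above was not tested. Fibroblast genes had 9 of 18 members lower in Phc1-KO and 4 higher, with summed levels of 4574 and 3446 CPM in Phc1-KO, 8967 and 13856 in NPC and 3873 and 3748 in ESC. Col3a1, a fibrillar collagen, was at 4575 and 6360.5 CPM in NPC and 71.9 and 51.8 in Phc1-KO, and Fap, a fibroblast surface protease, at 434 and 525 in NPC and 2.67 and 3.73 in Phc1-KO. S100a4, a calcium-binding protein of motile fibroblasts, was higher in Phc1-KO, at 326 and 368 CPM against 4.801 and 7.597 in NPC and 42.9 and 45.02 in ESC. Postn and Dcn, matrix proteins, were below NPC and above ESC: Postn stood at 168 and 198 CPM against 346 and 1059 in NPC and 4.63 and 4.93 in ESC, and Dcn at 45.5 and 29.8 against 555 and 747 in NPC and 2.71 and 3.16 in ESC. Postn lost its call against NPC without either Phc1-KO library. Relative to ESC 7 fibroblast genes were higher and none lower. Macrophage genes were higher than in NPC for 8 of 12, or 5 without NPC 1 and 3 in the fit without ESC, but their summed level was 28.9 and 21.6 CPM in Phc1-KO against 6.71 and 8.44 in NPC and 147 and 147 in ESC, and 8 were lower than in ESC. Among these genes the log2 fold changes against NPC ran from -0.44 for Csf1r, which did not pass, to 8.76 for a gene not named here. Emr1 was unread in NPC and at 0.209 and 0.242 CPM in Phc1-KO, from 9 counts in all, or at least 2.31-fold higher. Tyrobp was also unread in NPC, at 0.314 and 0.145 CPM in Phc1-KO, and lost its call without NPC 1, NPC 2 or Phc1-KO 1. Endothelial genes divided, with 4 of 10 higher and 3 lower, not far from the 32.3% and 32.7% of all tested genes. Pecam1, which stem cells also express, was at 30.9 and 32.7 CPM against 0.658 and 0.649, and Emcn, an endothelial mucin, at 0.157 and 0.0968 against 60.7 and 65.4. In libraries of bulk cells, fewer cells of a type and less RNA per cell cannot be told apart.

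Signalling genes were read by pathway. Nodal pathway genes had 8 of 12 members higher and 2 lower: the ligand Nodal was at 55.4 and 53.7 CPM against 0.197 and 0.325, its co-receptor Tdgf1 at 506 and 671 against 0.592 and 0.3896, and its inhibitor Lefty1 at 336 and 471 against 0.855 and 0.974. Smad3, which carries the signal to the nucleus, was lower, at 44.9 and 33.7 CPM against 173 and 206. FGF and ERK genes went the other way, with 8 of 14 lower and 1 higher, the latter being Fgf4. Spry1, a feedback inhibitor of the pathway, was at 226 and 193 CPM in NPC and 19.4 and 19.9 in Phc1-KO, and Dusp6, an ERK phosphatase, at 777 and 389 in NPC and 138 and 157 in Phc1-KO. Fgfr3, a receptor of neural progenitors, was at 20.6 and 11.4 CPM in NPC and 1.99 and 1.94 in Phc1-KO. Without NPC 1 or Phc1-KO 2 the higher count was 2.

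Notch genes had 7 of 13 members lower and 1 higher. The receptor Notch1 was at 152 and 119.9 CPM in NPC and 28.9 and 21.7 in Phc1-KO, and Lfng, which tunes its ligand response, at 60.1 and 47.4 in NPC and 3.404 and 3.096 in Phc1-KO. Jag2, a ligand, was higher, at 27.3 and 30.96 CPM against 1.32 and 1.56. Without NPC 1 the higher count was 3. BMP and Id genes were lower for 9 of 12, but 4 without Phc1-KO 1 and 3 without Phc1-KO 2. Id1, a target of BMP signals, was at 25.1 and 63.6 CPM in NPC and 20.8 and 20.2 in Phc1-KO, and Id3 at 77.3 and 203 in NPC and 52.4 and 59.2 in Phc1-KO. Neither call held without Phc1-KO 1 or without Phc1-KO 2, and that of Id1 did not hold without NPC 2. The 1 higher gene was the BMP antagonist Grem1, at 186 and 117 CPM against 0.4603 and 0.455, and without NPC 2 there were 3. Wnt targets divided evenly, with 5 of 12 in each direction, or 3 higher in the fit without ESC. Over all tested genes 32.3% were higher and 32.7% lower, also an even division. Axin2, a feedback target, was lower, at 9.53 and 6.05 CPM against 36.4 and 46.8. Lef1, the nuclear partner of beta-catenin, was higher, at 41.8 and 37.3 against 2.302 and 2.27. Of 8 LIF and STAT3 genes, 5 were lower, among them the LIF receptor Lifr, at 137 and 135 CPM against 283 and 269.6, and its partner Il6st, at 92.1 and 58.9 against 236 and 346. The target Socs3 was higher, at 56.04 and 57.5 CPM against 21.6 and 28.96, as was Pim1, a kinase, at 28.3 and 30.3 against 1.38 and 2.403.

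Cell cycle and replication genes were higher in Phc1-KO for 21 of 23 and lower for none, with a median of 1.54. Mcm2, a subunit of the replicative helicase, was at 717 and 953 CPM against 122 and 88.8, and Ccne1, the G1 cyclin E1, at 242 and 280.3 against 42.8 and 45.3. Mki67, the Ki-67 protein, was at 665 and 629.9 CPM against 728 and 524 and did not pass (adjusted p = 0.818). Ccne2 did not pass either, but was higher without Phc1-KO 1 (adjusted p = 0.0416). Of the inhibitors of cyclin-dependent kinases, Cdkn1a (p21) was lower, at 68.2 and 53.1 CPM against 229 and 175, as were Cdkn1c (p57), at 58.3 and 50.6 against 174 and 194 and Cdkn2c (p18), at 1.100 and 2.66 against 37.3 and 31.2, while Cdkn2a did not pass (log2 fold change -0.71, adjusted p = 0.0656, and a call at -1.10 without NPC 1). The list of these inhibitors and p53 targets had 7 of 14 lower and 4 higher, the higher ones including the cell death genes Bbc3, at 24.4 and 27.8 CPM against 9.799 and 11.2, and Pmaip1, at 68.9 and 73.6 against 12.96 and 18.4. Glycolysis genes had 12 of 14 members higher and 1 lower, or 2 without NPC 2. Hk2, a hexokinase, was at 541 and 525 CPM against 65.3 and 36.9, and Slc2a1, the glucose transporter GLUT1, at 269 and 330.5 against 45.8 and 21.1. Hk1 was lower, at 28.8 and 20.7 CPM against 52.3 and 48.6. Relative to ESC 6 of the 14 were lower and none higher, Pfkp, a phosphofructokinase, being at 164 and 193 CPM against 591 and 584. Several of these enzymes have many pseudogenes, so their counts are uncertain.

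Imprinted genes, expressed from 1 parental allele, had 17 of 24 members lower in Phc1-KO and 3 higher, with a median of -2.52. Igf2, a fetal growth factor, was among the most abundant NPC messages, at 4357 and 3746 CPM, and at 25.8 and 16.4 in Phc1-KO, a difference of -7.59 (SE 0.28). Peg3, a zinc finger protein, was at 1983 and 2992 CPM in NPC and 200.4 and 179 in Phc1-KO, and Plagl1 at 638 and 491 in NPC and 8.12 and 4.45 in Phc1-KO. Phlda2, a brake on placental growth, was higher, at 27.7 and 24.6 CPM against 0.0658 and 0.2597. In level, the non-coding RNAs of the Dlk1-Meg3 region on chromosome 12 were lower in Phc1-KO than in both other groups. Rian was at 88.1 and 85.97 CPM in Phc1-KO, 444 and 542 in NPC and 574 and 588 in ESC, and Meg3 at 70.7 and 25.6 in Phc1-KO, 278 and 284 in NPC and 208 and 196 in ESC. Mirg, also of that region, stood at 4.03 and 3.39 CPM in Phc1-KO, 33.3 and 38.2 in NPC and 45.6 and 44.95 in ESC, and Rtl1, a retrotransposon-derived gene there, at 6.55 and 4.26 in Phc1-KO, 31.2 and 43.6 in NPC and 54.2 and 55.8 in ESC. Of 17 tested microRNA loci of the region (mm9 chromosome 12, 110826153 to 110980708) 16 were lower than in NPC and 14 lower than in ESC. Their summed counts were 48 and 33 in Phc1-KO, 211 and 244 in NPC and 248 and 247 in ESC, with no overlap. By contrast Dlk1, a protein-coding gene at the other end of the region, was high in NPC alone, at 139 and 63.7 CPM. It was at 2.304 and 1.11 CPM in Phc1-KO and 2.097 and 2.49 in ESC.

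Germline genes had 13 of 15 members higher in Phc1-KO than in NPC and 1 lower. Tdrd12, a Tudor protein of the piRNA pathway, was at 96.99 and 136 CPM against 0.329 and 0.2597, and Ddx4, the Vasa helicase, at 18.9 and 18.6 against 0.395 and 0.325. Rbmxl2, an RNA-binding protein of the testis, was unread in NPC and at 38.02 and 32.2 CPM in Phc1-KO, at least 357-fold higher. The lower gene was Brdt, a bromodomain protein of the testis, at 1.89 and 1.94 CPM against 8.61 and 11.9. The 3 tested genes of the two-cell-like state were unread in NPC. Zscan4c stood at 1.83 and 0.774 CPM in Phc1-KO, Zscan4d at 4.08 and 2.42 and Zscan4f at 1.47 and 1.06, at least 13.1-fold, 32.8-fold and 12.8-fold higher. These near-identical copies share reads, so their levels are uncertain. Primitive streak and endoderm genes had 7 of 14 members higher than in NPC and 1 lower, and lower than in ESC for 8. T, the brachyury factor, was at 7.17 and 6.05 CPM in Phc1-KO, 1.25 and 0.325 in NPC and 58.1 and 56.7 in ESC, and Eomes at 7.44 and 6.48 in Phc1-KO, 0.592 and 0.325 in NPC and 18.4 and 19.4 in ESC. The gene lower than in NPC, Cer1, lost its call with DESeq2 and without NPC 1 or Phc1-KO 2. Trophoblast genes had 5 of 12 members higher and 2 lower, or lower for 4 without NPC 1 and 1 without Phc1-KO 2. Elf3, an epithelial ETS factor, was unread in NPC and at 4.98 and 4.402 CPM in Phc1-KO.

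Interferon response genes had 5 of 15 higher and 6 lower than in NPC, not far from the 32.3% and 32.7% of all tested genes. The counts rested on single libraries. The higher count was 2 without NPC 1 and 3 without any other library but NPC 2, and the lower count was 2 without Phc1-KO 1 and 3 without ESC 1, ESC 2 or NPC 2. Bst2, an antiviral membrane protein, was at 56.6 and 60.4 CPM against 10.7 and 10.2 and Ifitm1 at 17.8 and 26.4 against 0.592 and 2.08. Isg15, a ubiquitin-like protein, was at 0.995 and 0.871 CPM in Phc1-KO, 0.197 and 0.3896 in NPC and 7.89 and 8.46 in ESC, and its call against NPC was lost without NPC 1. MHC class I genes had 5 of 9 members higher and 1 lower: H2-D1 was at 51.3 and 67.3 CPM against 9.14 and 6.49, and Tap1, the peptide transporter, was lower, at 8.33 and 11.2 against 23.6 and 36.7. H2-D1 and H2-K1 have close paralogs, so their counts are uncertain.

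Among the 10 of highest level in Phc1-KO with at least a 2-fold increase, Hsp90ab1, a chaperone, was at 3323 and 2711 CPM against 1459.6 and 1298, Ncl, nucleolin, at 3536 and 2403 against 867.5 and 627, and Nasp, a histone chaperone, at 1487 and 1691 against 242 and 173. Pkm2, pyruvate kinase, was at 1687 and 2679.6 CPM against 496 and 281. Among the 10 of highest level in NPC, Igfbp3, a carrier of insulin-like growth factors, was at 2952 and 1563 CPM against 42.4 and 37.5 in Phc1-KO, Ckb, the brain creatine kinase, at 2346 and 993 against 54.5 and 70.5, and Ccnd2, cyclin D2, at 2093 and 1781 against 373 and 272. Among the largest decreases were also Erbb4, a neuregulin receptor, at 51.6 and 56.9 CPM in NPC and 0.0524 and 0 in Phc1-KO, and Ppargc1a, a coactivator of mitochondrial genes, at 43.5 and 30.6 in NPC and 0 and 0.0484 in Phc1-KO. Slco1a4, an organic anion transporter, was at 34.98 and 206 CPM in the NPC libraries and 0 and 0.0484 in Phc1-KO. Among the largest increases were Gdf3, a ligand of the TGF-beta family, at 138 and 155 CPM against 0.132 and 0, Spink3, a protease inhibitor, at 14.5 and 25.8 against 0, and Apoc1, an apolipoprotein, at 9.16 and 9.68 against 0.

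A smaller set of genes held levels in Phc1-KO that neither NPC nor ESC had. These were picked by their values and are described without a test. Tfpi2, an inhibitor of serine proteases, was at 15.8 and 17.03 CPM in Phc1-KO, 0.0658 and 0.0649 in NPC and 0.123 and 0.122 in ESC. Mmp3, a matrix metalloproteinase, was at 181 and 212 CPM in Phc1-KO, 8.55 and 2.08 in NPC and 7.52 and 8.27 in ESC, and Mmp10, of the same family, at 22 and 30.5 in Phc1-KO, 0.329 and 0.325 in NPC and 0.864 and 0.7300 in ESC. Serpinb2, a plasminogen activator inhibitor, was at 15.7 and 17.3 CPM against 0 and 0.0649 in NPC and 1.05 and 0.912 in ESC. Below both groups lay Aldoc, the brain aldolase, at 4.14 and 6.43 CPM against 55.2 and 39.4 in NPC and 52.1 and 51.9 in ESC, and Maf, a leucine zipper factor, at 1.15 and 0.629 against 54.3 and 78.6 in NPC and 5.92 and 7.73 in ESC. A2m, a protease-trapping serum protein, was at 2.46 and 3.14 CPM against 119 and 430.3 in the NPC libraries and 27.4 and 28.7 in ESC. With a mean of at least 4 CPM in a group, numbered gene models left out, 375 genes passed above both groups and 402 below both. In each gene given here the Phc1-KO libraries lay outside the range of the other 4 libraries, which largely follows from that choice.

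Another set, also picked by value, was near NPC and away from ESC. Ccl2, a chemokine, was at 88.5 and 96.3 CPM in Phc1-KO, 84.2 and 75.3 in NPC and 12.2 and 11.9 in ESC. Tnc, the matrix protein tenascin C, was at 1783 and 1242 CPM in Phc1-KO, 1906 and 830.3 in NPC and 219.7 and 215 in ESC, and Tm4sf1, a membrane protein, at 83.4 and 127 in Phc1-KO, 54.9 and 90.9 in NPC and 16.2 and 15.5 in ESC. Plau, the urokinase protease, was at 54.9 and 63.03 CPM in Phc1-KO, 106 and 55.5 in NPC and 8.39 and 8.09 in ESC. On the low side, Frem2, a basement membrane protein, was at 15.6 and 9.92 CPM in Phc1-KO, 7.89 and 12.6 in NPC and 138 and 131 in ESC, and Arg1, arginase, at 1.26 and 1.16 in Phc1-KO, 1.12 and 0.974 in NPC and 12.8 and 12.3 in ESC. Mixl1, a homeobox factor of the primitive streak, was at 0.786 and 0.532 CPM in Phc1-KO, 0.395 and 0.2597 in NPC and 9.07 and 7.97 in ESC. A level that did not pass against NPC is not shown to be the same: the 95% interval of the log2 difference from NPC was -0.10 to 0.53 for Ccl2 and -0.35 to 0.98 for Frem2. The NPC libraries decided some of these: Tnc passed against NPC at 0.87 without NPC 1, and Plau at -0.85 and Tm4sf1 at 0.94 without NPC 2.

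**Figure D4:**
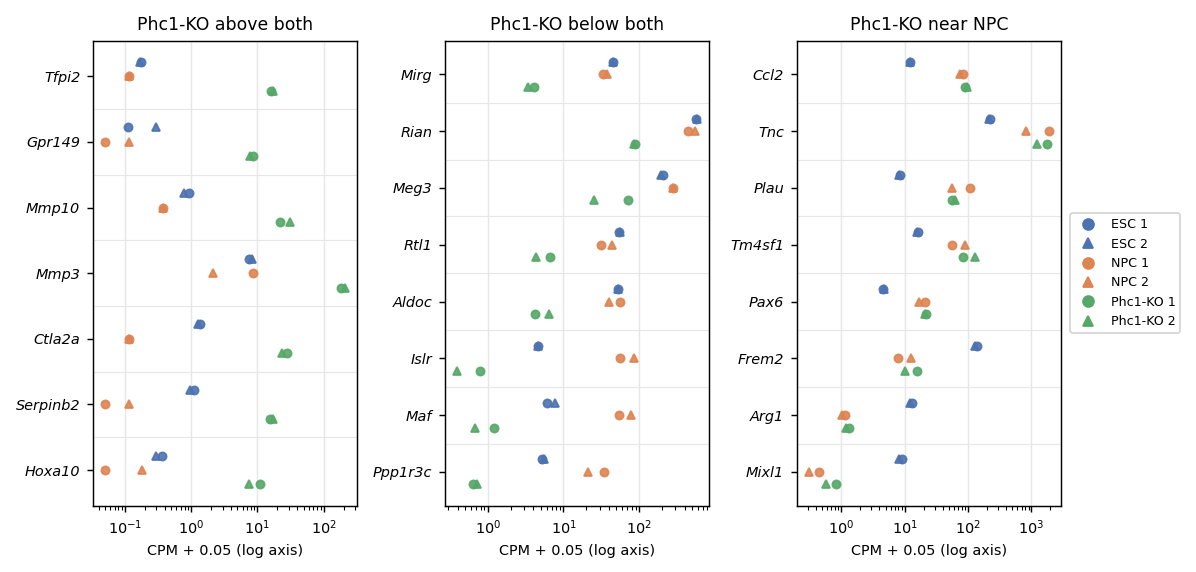
CPM in each of the 6 libraries on a log axis after adding 0.05 CPM, for genes whose Phc1-KO level was above both other groups (left), below both (middle) or near NPC (right), chosen by these values. The Phc1-KO points lie outside all other points in the left and middle panels, for example Mmp3 at 181 and 212 CPM, and among or next to the NPC points at right.

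The called genes were also described by what the counts did not use. Among 14982 tested protein-coding genes, those higher in Phc1-KO had a median span, from start to end of the gene, of 18.3 kb, those lower 36.8 kb, and all tested genes 23.4 kb. In the 840 genes over 200 kb, 11.4% were higher and 65.5% lower, against 39.6% and 22.4% of the 1978 genes under 5 kb. Many genes of neural adhesion and receptors are long, and their part in this difference was not tested. Among protein-coding genes of at least 4 CPM, the median log2 difference from the NPC mean in genes over 200 kb was -1.31 in Phc1-KO 1 and -1.55 in Phc1-KO 2, and in genes under 5 kb it was 0.26 and 0.55. Between Phc1-KO and ESC the same long genes had a median difference of -0.14, and the genes under 5 kb one of 0.22. The step between span classes thus appeared in both libraries, and was larger in Phc1-KO 2, the library with fewer reads outside genes, whose part was not tested.

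Promoters were read from the mm9 genome as 250 bases before to 50 after the annotated start, for 14978 of the protein-coding genes. A CpG observed over expected ratio above 0.6 was found in 62.6% of all tested genes, 61.7% of those higher and 60.5% of those lower in Phc1-KO, and 32.3% of all 37199 annotated promoters. Among genes that differed at least 32-fold it was less frequent, 20.6% of 500 higher genes and 33.4% of 329 lower genes. A neural marker shows this, with CpG dinucleotides in capitals, 5′ to 3′ on the gene's strand:
Fabp7 promoter (mm9 chr10:57504437-57504736, plus strand): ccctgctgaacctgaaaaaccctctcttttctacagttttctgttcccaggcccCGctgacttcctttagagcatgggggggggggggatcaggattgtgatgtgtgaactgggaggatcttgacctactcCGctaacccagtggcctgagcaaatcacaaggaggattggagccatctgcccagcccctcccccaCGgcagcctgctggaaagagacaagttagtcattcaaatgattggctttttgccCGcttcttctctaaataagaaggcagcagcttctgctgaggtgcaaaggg
The Fabp7 window holds 4 CpG (ratio 0.19). Utf1, with 13 CpG and a ratio of 0.65, lies just above the limit. Methylation was not measured in these libraries.

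By chromosome, among 11832 protein-coding genes of at least 4 CPM, 32.9% were higher and 34.6% lower in Phc1-KO, with a median log2 difference of -0.03. Of the chromosomes with at least 20 such genes, 11 and 6 lay farthest from it. On chromosome 11, 21.2% of 958 genes were higher and 46.0% lower, with medians of -0.37 in Phc1-KO 1 and -0.38 in Phc1-KO 2. On chromosome 6, 45.9% of 586 genes were higher and 32.4% lower, with medians of 0.32 and 0.32. Read against ESC, the chromosome 11 genes had a median of 0.0015 in Phc1-KO and 0.40 in NPC, so it was the NPC libraries that lay away from ESC there, at 0.36 and 0.37. Chromosome 6 genes had a median of 0.10 in Phc1-KO and -0.23 in NPC. DNA copy number was not measured, and its part was not tested. Genes of the X chromosome had a median of -0.25, with 27.5% of 411 higher and 42.8% lower.

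**Figure D5:**
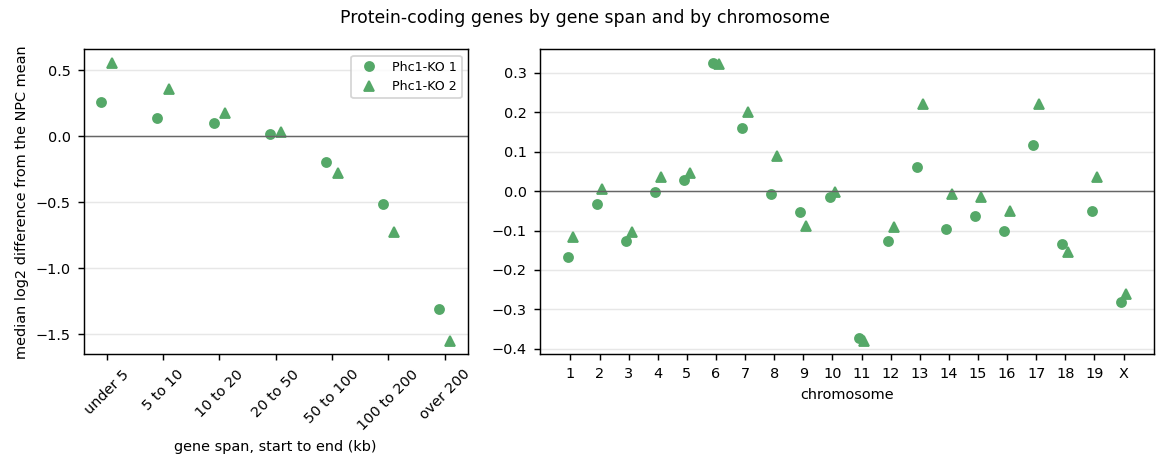
Median log2 difference of each Phc1-KO library from the NPC mean, over protein-coding genes of at least 4 CPM, by gene span in kb (left) and by chromosome (right, chromosomes with under 20 such genes left out). Both libraries fall from above 0 in genes under 5 kb to -1.31 and -1.55 over 200 kb, and both lie lowest at chromosome 11 and highest at chromosome 6.

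By gene class, counts are to be read beside the 32.3% higher and 32.7% lower of all tested genes. Small nucleolar RNA genes, which guide modification of ribosomal RNA, had 137 of 231 members higher and 27 lower. Long intergenic non-coding RNA genes had 169 of 732 higher, a smaller share than over all genes, and 256 lower, near that share. Processed transcripts had 121 of 632 higher and 239 lower. Of 80 microRNA loci tested 31 were higher and 29 lower, so 75% were called, against 64.9% of all tested genes. The 2 stem cell clusters gave 11 of the higher loci and the Meg3 region 16 of the lower ones. Small RNAs are read poorly by a total RNA library of this kind, so these counts describe loci and not mature molecules.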

How the data were processed

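Total RNA of 6 libraries was sequenced as 50-base single reads after ribosomal RNA depletion, per the labels. The deposited values are counts of reads per gene, made by the authors with STAR and HTSeq on mm9, per the submitters' processing notes. The sources used here do not give versions, the annotation release or whether counting used strand. Gene IDs were matched to GENCODE M1 (37205 of 37620 named). Exons of Actl6a, Cbx6, Csf1r, Grm6, Hoxa9, Hoxa11, L3mbtl2, Notch1, Pax6, Pim1 and Serpinb2 overlap other genes by more than 10% of their length. The counts of these genes are thus less certain.

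Counts were fitted with edgeR 4.0.16 (quasi-likelihood, TMM, 1 term per group, 3 residual degrees of freedom), after keeping genes with at least 10 counts in enough libraries and 15 in all. Benjamini-Hochberg adjustment covered all 17489 genes tested. The fit was checked on simulated counts in which few genes changed, so the check does not cover data where most genes differ. SE is the fold change over the root of F. Exact permutation of 2 against 2 libraries cannot go below p = 0.333, so no such test is given. DESeq2 1.42.0, limma 3.58.1 (voom), other scalings, filters and sample sets were alternatives, run in R 4.3.3, and tables were summarised in Python 3.11.15.

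The comparison, its gene lists (587 listed genes in the tables) and the alternatives were chosen with earlier results of these data known. Named genes are Phc1, the 4 markers, the 15 largest changes and 10 most abundant changed genes in each direction. From each list they are the first 3 members, the 5 largest changes and, in lists with 5 or fewer genes past the test, all of those. Canonical PRC1 is named apart from 1 gene, together with the 10 leading genes of each set chosen by value. Some genes, and a promoter, that meet the rule are not reported here. Other genes were named after their values were seen. They are Apoe, Bbc3, Brdt, Ccne2, Cd44, Cdkn2a, Cer1, Dcn, Dis3l2, Dppa3, Esrp1, Etv4, Gja1, Grik2, Grik3, Hoxb2, Hoxd1, Hoxd3, Hoxd4, Hoxd8, Id1, Id3, Krt7, L1cam, Mga, Mir92-2, Mirlet7a-1, Mirlet7c-1, Mirlet7d, Mki67, Myc, Nfib, Pfkp, Postn, Ptprz1, Rian, Rtl1, Slit3, Smad3, Sox3, Tbx3, Twist2, Vim and Zfp42.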

Additional observations from a re-analysis of the deposited data

How the results depend on the processing

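The test against a 2-fold change called 2827 genes higher and 2952 lower, and this stricter null hypothesis was the alternative of the 18 run that moved the counts over all genes by more than 1.5 times. DESeq2 gave 5521 higher and 5203 lower, limma-voom 5634 and 5682, and the fit of the Phc1-KO and NPC libraries alone 4989 and 4845. Leaving out each library in turn gave 4995 to 5730 higher and 4676 to 5938 lower. No pairing by replicate number was seen between NPC and Phc1-KO, where same-numbered deviations correlated at -0.02. The values with ESC, 0.02 and 0.06, cannot show pairing well, since that pair hardly varied beyond counting noise. A replicate block gave 5498 higher and 5563 lower. Other scalings shifted the median of all genes by under 0.1 on the log2 scale.

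The 11 named genes that changed sign did not pass the test with all libraries, and of these Plau, Cbx2, Ccne2, Tnc and Sox3 passed with 1 library left out. Leaving out each library in turn moved the log2 fold change from -0.17 to 0.65 for Pcgf2, -0.85 to 0.092 for Plau, -0.32 to 0.56 for Cbx2, -0.18 to 0.057 for Rnf2, -0.14 to 0.38 for Ccne2, -0.33 to 0.87 for Tnc, -0.17 to 0.31 for Mki67, -0.073 to 0.35 for Smarca4, -0.028 to 0.69 for Frem2, -1.22 to 0.70 for Mirlet7a-1 and -1.54 to 0.92 for Sox3. For Mirlet7a-1 it was -0.25 with limma-voom, -0.071 with the replicate block and -0.023 with total-count scaling. The cause was not tested. Where an arm is left with 1 library, that library is assumed to vary like the other groups. With 2 libraries a group, small changes and genes of few counts are the least certain.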
